A study of Homo sapiens with 12 samples.

Results

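The genes described here write and maintain CpG methylation. They are the DNA methyltransferases DNMT1, DNMT3A, DNMT3B and DNMT3L, the UHRF proteins UHRF1 and UHRF2, and the associated factors HELLS and USP7. Every array probe whose gene name in the scanner files equalled one of these 8 symbols was taken, which gave 8 of 36337 gene names and 14 of 50599 probes. RNA came from Colo320DM, an established human colorectal cancer cell line. Single clones had been selected after stable transfection of a GFP-tagged artificial microRNA vector, of which 3 carried a negative control insert and 3 an insert against TET1, so both the control and the knockdown clones carry a vector and were selected with G418. Each of the 6 clones gave a mock-treated array and an array of cells kept for 72 h in 5-aza-2'-deoxycytidine (5-aza-dC) at 1 µM, with drug and medium renewed daily. The groups are therefore mock control, mock knockdown, 5-aza-dC control and 5-aza-dC knockdown, with 3 arrays each. A clone's 2 arrays are not independent of each other, and each clone stands for 1 selected cell.

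DNMT1 copies methylation onto the new strand after DNA replication. UHRF1 recognises hemimethylated CpG sites, ubiquitinates histone H3 and recruits DNMT1 to them, and USP7 is a deubiquitinase that stabilises both proteins. DNMT3A and DNMT3B methylate unmodified CpG sites de novo, and DNMT3L is a catalytically inactive partner of these enzymes in germ cells. HELLS is an SNF2-family chromatin remodeller needed for methylation of repeats, and UHRF2 is a paralogue of UHRF1. TET1 oxidises 5-methylcytosine and so works in the opposite direction. 5-aza-dC is built into replicating DNA, where it traps the enzymes, so that DNMT1 protein is lost. The arrays measure RNA and say nothing of the amount of enzyme.

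The upstream regions of 3 members are shown because the RNA signal of DNMT3B rose, that of HELLS fell and that of DNMT1 separated by slide. The RefSeq promoter table (GRCh38.p14) matched 7 of the 8 genes with 16 windows of 300 bases, each reaching from 250 bases before to 50 bases after an annotated start, and DNMT3L is named only. Capitals mark CpG dinucleotides, the substrate of these enzymes, and the sequences run 5′ to 3′ on the strand of the gene. The windows lie at chr19:10194904-10195203 on the minus strand for DNMT1, at chr10:94545538-94545837 on the plus strand for HELLS and at chr20:32779602-32779901 on the plus strand for DNMT3B. The DNMT1 and HELLS windows are at the outermost annotated start of the gene. The DNMT3B window is the one the table holds and lies at an internal start, 17467 bases into the gene, so it is not the outermost promoter.
DNMT1: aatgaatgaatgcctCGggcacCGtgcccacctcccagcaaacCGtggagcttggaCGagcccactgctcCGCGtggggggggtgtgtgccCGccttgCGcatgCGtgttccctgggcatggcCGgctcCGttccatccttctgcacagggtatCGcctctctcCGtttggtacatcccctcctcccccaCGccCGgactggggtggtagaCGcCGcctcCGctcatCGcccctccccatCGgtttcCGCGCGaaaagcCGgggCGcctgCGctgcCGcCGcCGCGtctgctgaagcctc
HELLS: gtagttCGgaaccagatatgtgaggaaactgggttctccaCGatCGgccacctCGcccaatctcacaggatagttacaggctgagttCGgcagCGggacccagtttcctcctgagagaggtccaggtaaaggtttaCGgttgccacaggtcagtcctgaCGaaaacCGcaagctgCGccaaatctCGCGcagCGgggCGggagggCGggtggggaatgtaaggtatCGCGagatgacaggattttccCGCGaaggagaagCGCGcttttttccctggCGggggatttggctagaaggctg
DNMT3B: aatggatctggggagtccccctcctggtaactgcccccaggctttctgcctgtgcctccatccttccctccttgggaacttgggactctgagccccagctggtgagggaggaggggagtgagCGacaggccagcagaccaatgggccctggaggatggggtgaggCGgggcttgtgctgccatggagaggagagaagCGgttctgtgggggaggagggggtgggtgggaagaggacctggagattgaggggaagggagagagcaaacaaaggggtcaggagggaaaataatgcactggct
DNMT1 has 30 CpG sites in its window, HELLS 22 and the internal DNMT3B start 3. The median over 35116 windows is 14, and 77.6%, 62.3% and 18.2% of windows have fewer sites than these 3. An E2F motif (TTTCCCGC, TTTGGCGC, TTTGCCGC or TTTCGCGC, on either strand) was found in 4 of the 16 windows, which belong to DNMT1, UHRF1 and HELLS, against 3.31% of all windows. In HELLS the motifs begin 76 and 8 bases before the start, and in DNMT1 1 motif begins 2 bases before it. A match of letters is a description of the window and not a bound site.

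Values are log2 processed signals minus the 75th percentile of the array (log2 signal below), so that 1 unit is a doubling and a negative value lies under that percentile. They can be compared between arrays for 1 probe and not between probes. Of the 14 probes, 12 probes of 7 genes were well above background on all 12 arrays. The DNMT3L probe A_23_P17673 and the DNMT3B probe A_33_P3359508 were well above background on none, in control or knockdown clones and with or without 5-aza-dC, so no fold is given for them. On each array 45.7% to 52.9% of all probes passed that detection flag, and the number of arrays limits the precision of each difference. The arrays lay on 2 slides with 1 scan each. The 7 arrays of slide 1 were those of control clones 1 and 2 in mock, of all knockdown clones in mock and of knockdown clones 1 and 3 with 5-aza-dC. The 5 arrays of slide 2 were control clone 3 in mock, all control clones with 5-aza-dC and knockdown clone 2 with 5-aza-dC. Only control clone 3 and knockdown clones 1 and 3 thus had both of their arrays on 1 slide. Of 19808 probes detected on all arrays, 13.2% were higher and 14.5% lower on slide 2 without overlap, and the members in question are named where they are described.

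The target gene checks the labels. The brightest TET1 probe (A_33_P3295550) was at 4.56, 4.23 and 4.67 in mock control and at 3.59, 3.51 and 3.57 in mock knockdown clones, a log2 difference of -0.93 (SE 0.19, limma adjusted p = 0.276), without overlap of the groups (p = 0.1 in a two-sided exact permutation test, the lowest that 3 against 3 allow). At the probe A_23_P322756 the mock groups overlapped (exact permutation p = 0.2), where -1.15 in control clone 3 met -1.14 in knockdown clone 1, and at A_19_P00806490 they did not (exact permutation p = 0.1). After 5-aza-dC the brightest probe was at 4.06, 4.42 and 4.16 in control and 2.98, 4.31 and 3.35 in knockdown clones. The difference was -0.67 (limma adjusted p = 0.335). With slide as a block, which sets knockdown clone 2 alone against the controls, it was 0.092. The library labelled 5-aza-dC knockdown clone 2, the one knockdown array on slide 2, was thus within the range of the controls at this probe, and it was below all 3 controls at the other TET1 probes (1.02 against 1.99 to 2.37, and -1.74 against -0.77 to -0.61). Of the epithelial markers, KRT8, KRT18, KRT20 and CDX2 were detected on all 12 arrays, EPCAM on 10, KRT19 on 6, VIL1 on 1 and CDH1 on none. Of 8 markers of fibroblasts, leukocytes and endothelium, 3 were detected on all arrays (COL1A1, CD14 and PTPRC) and 2 on none. In bulk RNA, fewer cells of a kind and less RNA per cell cannot be told apart.

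The first comparison asked whether the methylation machinery differed in clones carrying an insert against TET1. In mock clones, limma called 0 of 12 member probes at an adjusted p under 0.05, where 0.137% of 24751 probes were called. At an unadjusted p under 0.05 it also called 0, where 11.2% of all probes passed, and the methods' t-test called 0 after adjustment. In 0 members did the groups separate without overlap, where 12.2% of all probes were higher and 9.12% lower in this way. The member differences ranged from -0.68 to 0.17, with a median of -0.17 against 0.040 over all probes. The most negative was the brightest DNMT3A probe (A_33_P3272330; chr2:25457095-25457154 on hg19), with 0.19, 0.74 and 1.69 in control and -0.015, 0.39 and 0.19 in knockdown clones. Control clone 3, the one mock array on slide 2, was the highest of them. The difference of -0.68 (SE 0.39, adjusted p = 0.529) became -0.27 (SE 0.23) with slide as a block. In mock clones this block leaves control clone 3 out of the difference. The DNMT1 probe (A_33_P3329187; chr19:10244023-10244082) was at 3.21, 3.11 and 5.09 in control and 3.34, 3.36 and 3.16 in knockdown clones. The groups overlapped, and again control clone 3 alone stood apart. DNMT1 differed by -0.52 (SE 0.53, adjusted p = 0.691), which turned to 0.13 (SE 0.14) with slide as a block. The second UHRF1 probe (A_33_P3379454) showed the same arrangement, with 1.02 in control clone 3 against -0.053 to 0.18 in the other mock arrays and a difference of -0.35 (SE 0.30, adjusted p = 0.642; -0.037 with slide as a block). HELLS (A_23_P12816) was at 2.23, 2.57 and 2.12 in control and 2.31, 2.44 and 2.34 in knockdown clones, a difference of 0.055 (SE 0.19, adjusted p = 0.908) that was -0.038 with slide as a block. With 3 arrays a group, a p that misses the threshold does not show that the levels are alike.

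After 5-aza-dC, 0 of 12 member probes were called between clone types by limma or by the methods' t-test, where limma called 0.096% of 24996 probes. At an unadjusted p under 0.05 limma passed 2 members, where 19.2% of all probes passed. In 3 of the 12 the groups did not overlap, 1 higher and 2 lower in knockdown clones, where 11.7% and 13.3% of all probes did so. The one higher was HELLS (A_23_P12816), at 1.00, 1.41 and 1.47 in control and 1.94, 1.51 and 2.18 in knockdown clones (0.58, SE 0.26, adjusted p = 0.272; 0.22 with slide as a block). Knockdown clone 2, on the slide of the controls, was the lowest of the knockdown clones and close to the highest control. With slide as a block this array alone is set against the controls, for HELLS and for the probes below. The 2 others were DNMT1 and the second UHRF1 probe. DNMT1 was at 4.52, 4.59 and 4.75 in control and 2.99, 4.49 and 2.92 in knockdown clones. The 2 low values are those of slide 1. The difference of -1.15 (SE 0.44, adjusted p = 0.239) was -0.13 with slide as a block, for knockdown clone 2 alone. The second UHRF1 probe differed by -0.57 (SE 0.22, adjusted p = 0.240; -0.30 with slide as a block). The brightest DNMT3A probe differed by -1.16 (SE 0.50, adjusted p = 0.266), and by -0.046 with slide as a block. Without knockdown clone 2, where clone type and slide cannot be told apart, limma called 5 of the 12 probes and 7727 of all probes.

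The second comparison asked how 5-aza-dC changed these genes. Over all clones, DNMT3B (2.48-fold) and the probe of a DNMT3A transcript (2.46-fold) rose, HELLS and USP7 fell, and the maintenance enzyme DNMT1 and its recruiter UHRF1 did not pass the test. The calls of USP7 and of the brightest HELLS probe were lost with slide as a block, and that of the second HELLS probe was kept. Over all 6 clones, limma called 5 of 12 member probes, 2 higher and 3 lower, where 13.2% of 27282 probes were called, 7.29% higher and 5.95% lower. With slide as a block it called 3 members, where 9.09% of probes were. In control clones 2 members were called (DNMT3B and HELLS), where 5.21% of 24636 probes were. With slide as a block 0 members were called there, where 2.08% of probes were, and mock control clone 3 alone stands for mock in that fit. Without the block, 5 members passed an unadjusted p under 0.05 by limma in control clones, where 6535 of 24636 probes did. In knockdown clones 0 were called by limma or by the methods' t-test, where limma called 2.04% of 25389. At an unadjusted p under 0.05 limma passed 2 there, where 9.15% of all probes passed. With the clone as a block the count was 1 in control clones, where the adjusted p of HELLS became 0.0645 and 5.72% of probes were called, and 4 over all clones, where 17.9% were. In control clones 2 members lay wholly higher and 3 wholly lower after 5-aza-dC, where 13.7% and 18.8% of probes did, and in knockdown clones 2 and 3, where 7.45% and 11.7% did. Without control clone 1 or 2 the count was 2 over all clones and 0 in control clones, and without any one knockdown clone it was 3 over all clones. Without control clone 3, where treatment and slide cannot be told apart in control clones, it was 6 there. The calls over all probes moved between the alternatives too, with their range in the closing section, so these counts are not read as a trait of the members. The members that did not overlap were DNMT3B and 1 DNMT3A probe, and both HELLS probes and USP7, in either clone type. The plot of the signal on each array shows these values by group and slide.

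**Figure D1:**
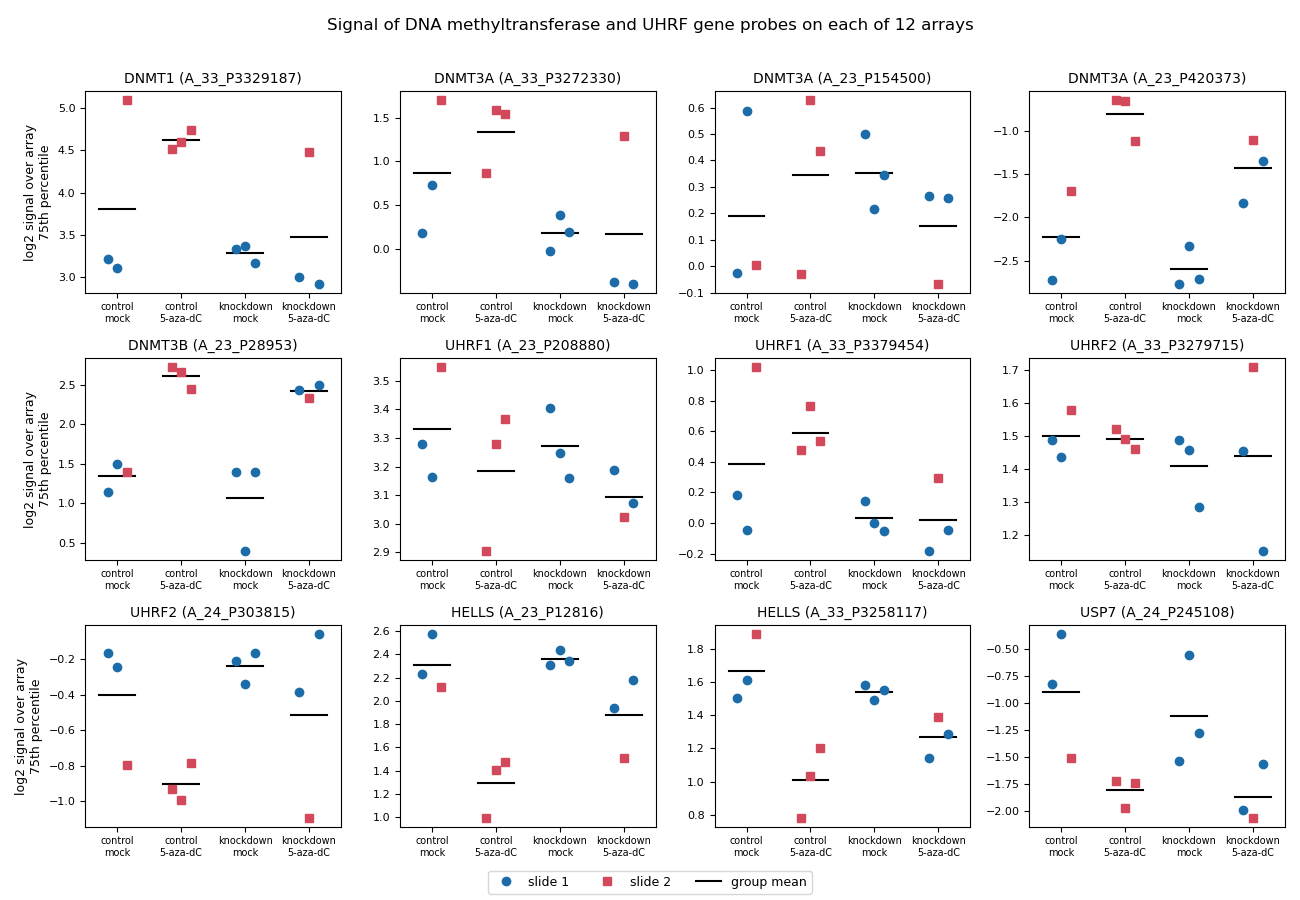
Log2 signal over the array's 75th percentile (vertical axis, a separate scale in each panel) of the 12 member probes detected on all arrays, in the 4 groups; each point is 1 array, circles are slide 1, squares are slide 2 and bars are group means of 3 arrays. DNMT3B is higher in all 6 arrays with 5-aza-dC (2.33 to 2.72) than in all 6 mock arrays (0.40 to 1.501), while DNMT1 separates by slide (2.92 to 3.36 on slide 1, 4.49 to 5.09 on slide 2).

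DNMT3B, a de novo methyltransferase, rose over all clones and was higher with 5-aza-dC in 6 of 6. Its probe A_23_P28953 (chr20:31397064-31397123) was at 1.14, 1.501 and 1.39 in mock control and 2.72, 2.67 and 2.45 in 5-aza-dC control clones. In knockdown clones it was at 1.40, 0.40 and 1.40 in mock and 2.44, 2.33 and 2.50 with 5-aza-dC. No treated array overlapped a mock array, and mock knockdown clone 2 was the lowest of all. The log2 difference was 1.27 (SE 0.18, adjusted p = 0.0137) in control clones, 1.35 (SE 0.32, adjusted p = 0.147) in knockdown clones and 1.31 (SE 0.18, adjusted p = 0.00117) over all clones, a 2.48-fold rise. The control-clone call was lost without control clone 1 or 2. With slide as a block, where mock control clone 3 alone stands for mock, the control-clone value was 1.22. Within a slide the rise was 1.06 in control clone 3, 1.04 in knockdown clone 1 and 1.10 in knockdown clone 3. Over all clones it was called in 17 of 17 alternatives, with slide as a block at 1.33 (SE 0.23, adjusted p = 0.0082). The difference of this rise between clone types was 0.089 (SE 0.37, limma adjusted p = 1.0) and was not called.

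DNMT3A, the gene of the other de novo enzyme, was measured by 3 probes, of which 1 rose. That probe was designed to another transcript than both others. The probe A_23_P420373 (chr2:25504394-25504453), designed to NM_175630 (transcript variant 4), was at -2.73, -2.24 and -1.69 in mock control clones and -0.65, -0.65 and -1.11 after 5-aza-dC. In knockdown clones it was at -2.77, -2.33 and -2.71 in mock and -1.84, -1.10 and -1.35 after 5-aza-dC. All 6 treated clones exceeded their mock array, and within each clone type the groups did not overlap. Over all clones it rose by 1.30 (SE 0.21, adjusted p = 0.00276), 2.46-fold, and by 0.97 (SE 0.19, adjusted p = 0.0160) with slide as a block. The call was lost with the replicate block and slide together (0.96, adjusted p = 0.0838) and in the 3 clones with both arrays on 1 slide (0.96, adjusted p = 0.0818). Alone, neither clone type passed the test (1.42 and adjusted p = 0.0526 in control, 1.17 and adjusted p = 0.132 in knockdown clones). The brightest DNMT3A probe, designed to NM_175629, differed by 0.22 (SE 0.34, adjusted p = 0.679) over all clones and by -0.50 (SE 0.21, adjusted p = 0.164) with slide as a block. Its values followed the slide, at -0.39 to 0.74 on slide 1 and 0.87 to 1.69 on slide 2. The third probe, A_23_P154500 (chr2:25456415-25456474), differed by -0.022 (SE 0.17, adjusted p = 0.937), and by 0.13 with slide as a block. The response of the variant 4 probe minus the mean response of both others was 1.19 ± 0.49 (SD, n = 6 clones) and positive in 6 of 6 clones. This is a description without a test, since the probe was singled out for its rise and the brightest of the others followed the slide. In the clones with both arrays on 1 slide it was 0.44, 1.23 and 1.70.

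HELLS fell with 5-aza-dC. Its brightest probe, A_23_P12816 (chr10:96354481-96354540), was at 2.23, 2.57 and 2.12 in mock control clones and at 1.00, 1.41 and 1.47 after treatment, and at 2.31, 2.44 and 2.34 in mock and 1.94, 1.51 and 2.18 in treated knockdown clones. The treated arrays were below the mock arrays in each clone type, and the drop was 1.23, 1.16 and 0.65 in control and 0.37, 0.93 and 0.16 in knockdown clones in size. Over all clones HELLS fell by 0.75 (SE 0.16, adjusted p = 0.0116), which left 59.4% of the signal. In control clones it fell by 1.01 (SE 0.21, adjusted p = 0.04998), a call kept in 4 of 18 alternatives. That call was lost with the clone blocked (adjusted p = 0.0645) and without control clone 1 or 2. With slide as a block, where mock control clone 3 alone stands for mock, HELLS was at -0.83. In knockdown clones it differed by -0.49 (SE 0.23, adjusted p = 0.606). The interaction of clone type and drug was 0.53 (SE 0.31, adjusted p = 1.0). With slide as a block the value over all clones was -0.54 (SE 0.15) and no longer called (adjusted p = 0.0520). The second probe, A_33_P3258117 (chr10:96334433-96334492), fell by 0.46 (SE 0.12, adjusted p = 0.0337) over all clones and by 0.59 (SE 0.12, adjusted p = 0.0170) with slide as a block. Both probes were lower in 6 of 6 clones, as were 17% of all probes. The call of the brightest probe was lost without control clone 1 or 2, and that of the second without any one of the clones but control clone 3.

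USP7, the deubiquitinase, was the remaining member called. Its probe A_24_P245108 (chr16:8986364-8986423) was at -0.82, -0.36 and -1.52 in mock control clones and -1.72, -1.97 and -1.74 after 5-aza-dC. In knockdown clones it was at -1.54, -0.55 and -1.27 in mock and -1.99, -2.06 and -1.56 after 5-aza-dC. All 6 clones were lower after treatment, and over all clones USP7 fell by 0.83 (SE 0.23, adjusted p = 0.0397). The call was lost when the clone was blocked (adjusted p = 0.0588) and with slide as a block (-0.53, SE 0.24, adjusted p = 0.205), and in each fit without 1 clone other than control clone 3. Within a slide the differences were -0.22, -0.46 and -0.29, against -0.90, -1.61 and -1.51 in the clones whose arrays lay on both slides.

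**Figure D2:**
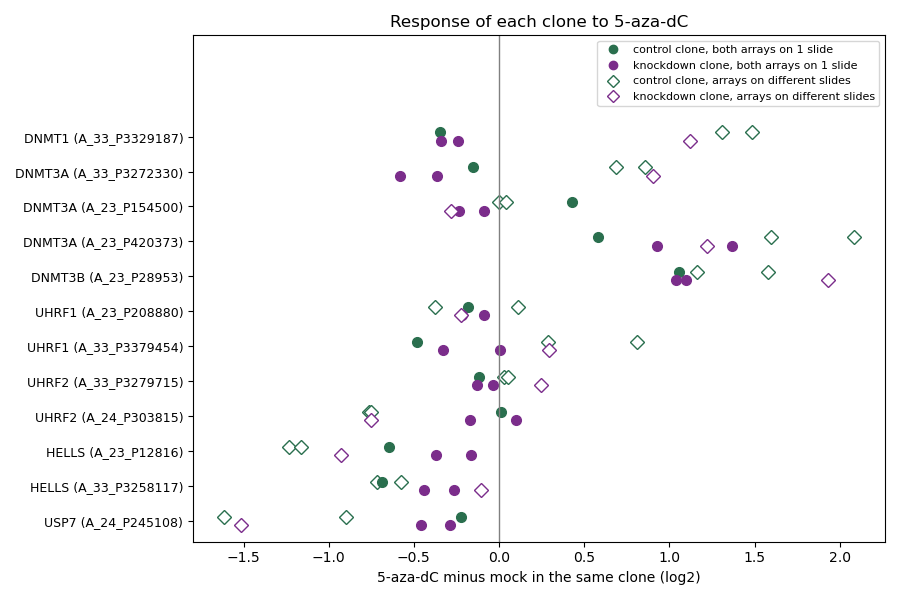
Difference between the 5-aza-dC and the mock array of each clone (horizontal axis, log2) for the 12 member probes; green marks control clones and purple knockdown clones, filled circles are clones with both arrays on 1 slide and open diamonds clones with arrays on different slides. Both kinds of clone lie above 0 for DNMT3B and the DNMT3A variant 4 probe and below 0 for HELLS and USP7, while for DNMT1 the filled circles lie below 0 and the open diamonds above it.

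DNMT1 itself did not pass the test in control, knockdown or all clones. Its direction differed between clones with both arrays on 1 slide and clones with arrays on different slides. Its values on each array are given with the comparisons of clone types. The 5 arrays of slide 2 were all at 4.49 to 5.09 and the 7 arrays of slide 1 all at 2.92 to 3.36, whatever the treatment or clone. The pooled difference was 0.50 (SE 0.38, adjusted p = 0.378), and with slide as a block it was -0.37 (SE 0.12, adjusted p = 0.0874). In the 3 clones with both arrays on 1 slide DNMT1 was lower after 5-aza-dC by 0.35, 0.34 and 0.24 in size. In the others it was higher by 1.31, 1.49 and 1.12, and these compare a treated array on slide 2 with a mock array on slide 1. In control clones alone the value was 0.82 (SE 0.53, adjusted p = 0.353), and in knockdown clones 0.18 (SE 0.44, adjusted p = 0.910). The part of the slide in these values was not tested beyond the block.

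UHRF1, which recruits DNMT1, did not pass the test. Its brightest probe, A_23_P208880 (chr19:4962065-4962124), was at 3.16 to 3.55 in mock control, 2.91 to 3.37 in treated control, 3.16 to 3.41 in mock knockdown and 3.02 to 3.19 in treated knockdown clones. The groups overlapped, and the difference over all clones was -0.16 (SE 0.13, adjusted p = 0.405), and -0.22 (SE 0.14) with slide as a block. The second probe, A_33_P3379454 (chr19:4960895-4960954), differed by 0.10 (SE 0.19, adjusted p = 0.744), and by -0.24 (SE 0.14, adjusted p = 0.310) with slide as a block. It was higher on slide 2 (0.29 to 1.02) than on slide 1 (-0.18 to 0.18). UHRF2 was at 1.15 to 1.71 over all 12 arrays at its brightest probe (A_33_P3279715; chr9:6421082-6421141), with a difference of 0.0089 (SE 0.12, adjusted p = 0.967), or -0.12 with slide as a block. Its second probe (A_24_P303815; chr9:6506080-6506139) differed by -0.39 (SE 0.19, adjusted p = 0.181), and by -0.024 with slide as a block. That probe is the one member lower on every array of slide 2 (-1.09 to -0.79) than on every array of slide 1 (-0.39 to -0.062).

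The members can also be counted within a slide. In the 3 clones with both arrays on 1 slide, 2 of 12 member probes were higher in every clone (DNMT3B and the DNMT3A variant 4 probe), where 19.9% of all probes were. Lower in every one of these clones were 7 of 12, where 34.3% of all probes were, and these were DNMT1, the brightest DNMT3A probe, both HELLS probes, the brightest probes of UHRF1 and UHRF2, and USP7. Over all 6 clones 2 probes were higher and 3 lower in every clone, where 12.7% and 17% of all probes were. With slide as a block 9 of 12 members were negative, with a median of -0.23 against -0.081 over all probes, and without it 6 were, with a median of -0.0068 against -0.053. No member was called for a difference in response between clone types (limma), where 0.0293% of 27282 probes were, and 0 passed an unadjusted p under 0.05, where 2.47% of probes did.

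**Figure D3:**
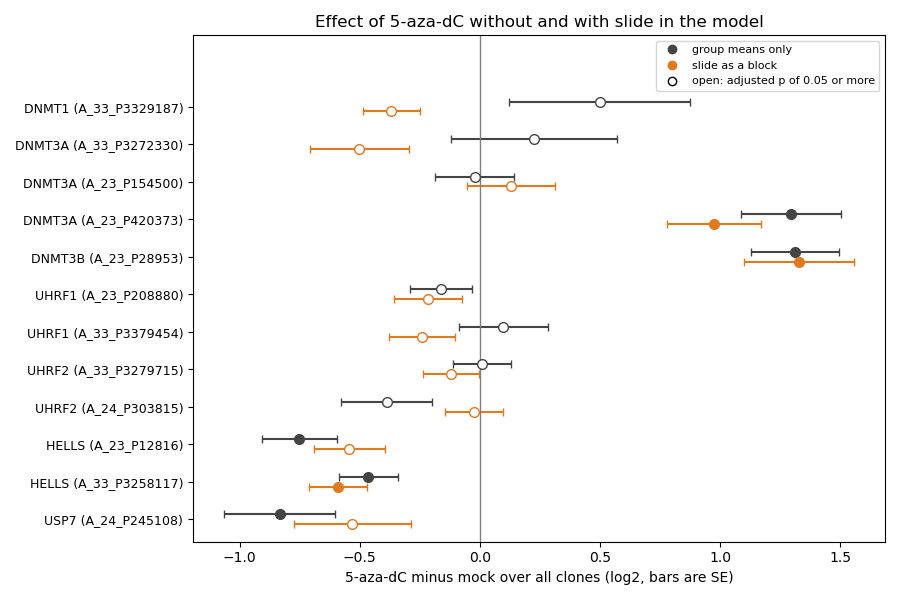
Log2 difference between 5-aza-dC and mock over all clones for the 12 member probes, with bars of 1 SE, from limma on 12 arrays with group means only (grey) and with slide as a block (orange); filled points have an adjusted p under 0.05. DNMT3B stays at 1.31 and 1.33, DNMT1 moves from 0.50 to -0.37 and the brightest DNMT3A probe from 0.22 to -0.50.

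The genes that work beside these enzymes were read on the same arrays, each at its brightest probe. Of 10 partners of maintenance methylation, such as the sliding clamp PCNA, DNA ligase LIG1 and histone deacetylase HDAC1, 0 rose and 1 fell over all clones, where 5.95% of all probes were called lower, and 0 were called with slide or with the clone as a block. The one was ZBTB24, a zinc finger protein mutated in a syndrome of centromere instability, which fell by 0.86 (adjusted p = 0.0460; -0.35 and adjusted p = 0.169 with slide, and adjusted p = 0.0710 with the clone, as a block). LIG1 was at -0.36 (adjusted p = 0.0995) and PCNA at -0.42 (adjusted p = 0.0918). Of 7 genes of H3K9 methylation, a mark that acts with DNA methylation in silencing, 1 fell, where 5.95% of all probes were called lower. It was SUV39H1, an H3K9 methyltransferase. SUV39H1 fell by 0.75 (adjusted p = 0.00324), by 0.63 (adjusted p = 0.0138) with slide as a block, and by 0.66, 0.71 and 0.64 in the clones with both arrays on 1 slide. The other 6 were at -0.55 to 0.079 without the block. With it all 7 were negative, with a median of -0.32 against -0.081 over all probes. CBX5, a heterochromatin protein that binds the mark, was at -0.55 (adjusted p = 0.169). It was called with the clone blocked (adjusted p = 0.0292), where 17.9% of all probes were.

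Of 4 genes that guide de novo methylation through histone H3 marks, 0 were called over all clones. NSD1, an H3K36 methyltransferase, was called with slide as a block (-0.54, adjusted p = 0.0348), where 9.09% of all probes were, and was at -0.038 without it. KDM1B, an H3K4 demethylase, was called in control clones (0.89, adjusted p = 0.0390), and this call was lost with slide (0.77, adjusted p = 0.154) and with the clone (adjusted p = 0.0744) as a block. Over all clones KDM1B was at 0.56 (adjusted p = 0.167), and there it was called with the clone blocked (adjusted p = 0.0282). So was the H3K36 methyltransferase SETD2 (-0.47, adjusted p = 0.0505 without and 0.0457 with that block). With the clone blocked 17.9% of all probes were called. Of 8 genes that supply the methyl donor, 1 fell, where 5.95% of all probes were called lower. It was the folate enzyme MTHFD1, which fell by 0.51 (adjusted p = 0.0207), and by 0.59 with slide as a block (adjusted p = 0.0224). MAT2A and MAT2B, subunits of the S-adenosylmethionine synthetase, were at -0.32 and 0.28 and were not called. The tRNA methyltransferase TRDMT1, related in sequence to the DNA methyltransferases, was at -0.20 (adjusted p = 0.431). None of these list genes was called between knockdown and control clones, mock or treated.

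Genes of dividing cells, which express HELLS, UHRF1 and DNMT1, were read beside them. Of 15 such genes, 0 rose and 1, MKI67, fell over all clones, a share near the 5.95% of all probes called lower (by 0.61, adjusted p = 0.0248; -0.45 and adjusted p = 0.106 with slide as a block). The median of the list was -0.19, and -0.25 with slide as a block, against -0.053 and -0.081 over all probes. The mean log2 signal of the 15 was 3.58 to 4.005 on the mock control arrays and 3.48 to 3.79 on the treated ones, and 3.76 to 3.95 and 3.37 to 3.71 on the mock and treated knockdown arrays. The treated and mock ranges overlapped in control clones only. Its part in the HELLS values was not tested. Of 6 epithelial markers tested over all clones, limma called 2 higher with 5-aza-dC, KRT19 and EPCAM (adjusted p = 0.00414 for EPCAM). Of all probes 7.29% were called higher. The others were at -0.36 (KRT8), 0.14 (KRT18), 0.10 (CDX2, and -0.37 with slide as a block) and 1.03 (KRT20, adjusted p = 0.0579, and 0.0129 with the clone as a block). With the clone as a block 17.9% of all probes were called. Of 3 neuroendocrine markers tested, CHGA and ENO2 were called higher (adjusted p = 0.00638 for ENO2) and SYP was not. No size is given for these called markers, since KRT19 was well above background on 6 arrays, CHGA on 4, EPCAM on 10 and ENO2 on 11. KRT19 and CHGA were not well above background on the remaining arrays, so their calls are a description and not a test. Of 4 markers of other cell types tested, 1 was called, COL1A1, a fibroblast collagen, which rose by 1.99 (adjusted p = 0.00505). CD14 was at 0.46 and PTPRC at -0.019, neither of them called. CD3E was not called, and no size is given for it since its probe was well above background on 4 arrays. The fibroblast collagen COL1A2 was well above background on no array. Whether these changes have a part in the member values was not tested.

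**Figure D4:**
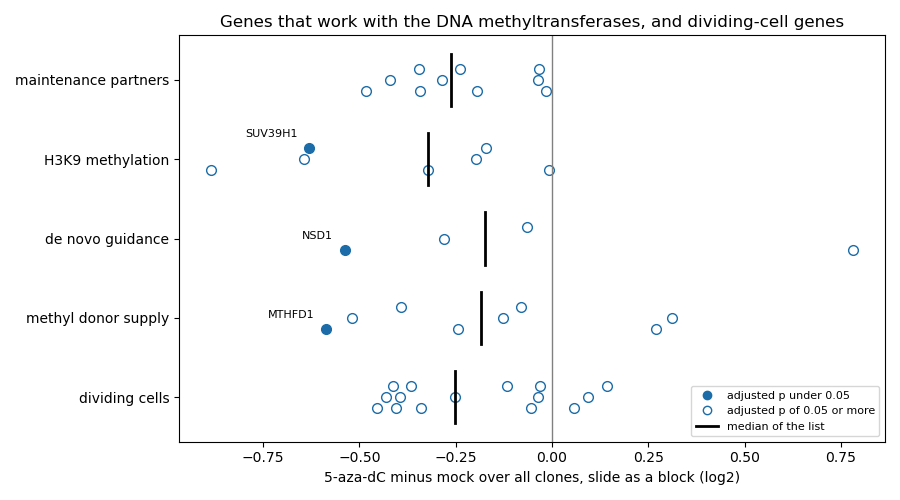
Log2 difference between 5-aza-dC and mock over all clones with slide as a block (horizontal axis) for the genes of 5 lists, 1 point per gene at its brightest probe; filled points have an adjusted p under 0.05 and vertical bars are list medians. SUV39H1, NSD1 and MTHFD1 are the 3 filled points, all below 0, and the list medians lie between -0.32 and -0.17, against -0.081 over all probes.

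The array-wide patterns closest to each member were found by Pearson's r over the 12 arrays among 12392 genes detected on all of them, as a description, since the arrays share slides, clones and treatment. DNMT1 was most like PPIAL4A, USF2 and CU676483 (r = 0.991, 0.989 and 0.988), and after the slide means were removed these values were 0.934, 0.830 and 0.845. DNMT3B was most like C6orf154, C1QL4 and SPINT2 (0.977, 0.972 and 0.970), and these values were 0.969, 0.964 and 0.960 with the slide means removed. HELLS was most like MUC4, JRK and HAT1 (0.968, 0.967 and 0.964), and the brightest DNMT3A probe like PHF2, ZNF688 and SYCE2 (0.973, 0.968 and 0.966). UHRF1 was most like PBLD, DCP1A and RBL1 (0.913, 0.904 and 0.900), UHRF2 like ZNF92, SNORA1 and SNORD33 (0.908, 0.874 and 0.868) and USP7 like EIF5, MTX3 and DYRK1A (0.946, 0.944 and 0.944).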

How the data were processed

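RNA of 6 Colo320DM clones was hybridised to 12 one-colour Agilent arrays (hg19 design). Values in the deposited scanner tables are background-corrected intensity from Feature Extraction 10.7.3.1, as the authors ran it, and had not been scaled between arrays. A deposited table of the whole series repeats that intensity to within 0.497%. Control and outlier spots (268 to 395 per array) were left out, and the log2 of the deposited processed signal was averaged per probe and centred on the array's 75th percentile. Probes well above background on at least 3 arrays of the fit were tested.

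Comparisons were fitted across all probes in R 4.3.3 with the two-sided moderated test of limma 3.58.1 (lmFit, eBayes) on the 6 arrays of the groups compared, and on 12 arrays for all clones and for the interaction. Calls are adjusted p-values under 0.05 (Benjamini-Hochberg, over every probe of the fit). The fit was tested on simulated data. The TET1 check used an exact permutation test. Clone numbers pair mock and 5-aza-dC arrays of a clone, whose deviations from the group means correlated at 0.217 to 0.366 in control and 0.429 to 0.616 in knockdown clones. Control and knockdown clones share only a number. No 2 arrays held identical values. Slide and scan were read from the scanner files. p-values measure the spread between arrays within a group, which holds clone differences and, in mock control and treated knockdown clones, slide differences. Fits without the clone as a block do not use the pairing of a clone's arrays.

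Members were named at the brightest probe, with other probes given where they were called or differed in direction. List genes were named where called, up to 6 per comparison. The members and lists were chosen with earlier results of these data known. Alternatives were 2 other normalizations (quantile, and normexp with an offset of 50), the array median, the series table, 2 filters, outlier spots kept, blocks for slide and clone, 12 arrays in 1 fit, the methods' t-test, the mean of a gene's probes, and each clone left out. Fits within 1 slide and on the 3 clones with both arrays on 1 slide were chosen after seeing the data. Promoter windows came from RefSeq (GRCh38.p14), and no coordinates were converted. Whether probes lie in exons or introns of hg19 was not analysed here.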

Additional observations from a re-analysis of the deposited data

How the results depend on the processing

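The rise of DNMT3B over all clones was called in 17 of 17 alternatives (1.02 to 1.39), and that of the DNMT3A variant 4 probe in 15 of 17 (0.69 to 1.51). Other calls moved more. Over all clones the count of member probes was 5, and it was 3 with slide as a block and without a filter on dim probes, and 1 with the replicate block and slide together and in the 3 clones with both arrays on 1 slide. Without 1 clone it was 2 to 5, at 2 without control clone 1 or 2 and 3 without any one knockdown clone. In control clones no count is given with slide as a block, with the replicate block and slide, or on slide 2 only. Mock control clone 3 alone stands for mock in those fits. The control-clone count of 2 became 1 with the replicate block, with quantile normalization, with the series table, without a filter and with the filter on every array. It was also 1 with outlier spots kept, with the methods' t-test, and with 12 arrays and slide as a block, and 4 with 12 arrays and no block. Leaving out a control clone gave 0 to 6, the 6 without control clone 3, where treatment and slide cannot be told apart. In knockdown clones the count of 0 became 1 with the replicate block and slide, with 12 arrays, and with 12 arrays and slide as a block, and stayed 0 without 1 clone. Between clone types the count was 0 under every alternative, except after 5-aza-dC without knockdown clone 2, which gave 0 to 5 over the fits without 1 clone.

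The sign of members near 0, or that followed the slide, turned. DNMT1 over all clones became -0.37 with slide as a block, -0.29 with the replicate block and slide and -0.31 in the clones on 1 slide. In control clones DNMT1 became -0.47 with slide as a block and on slide 2 only, -0.35 with both blocks and -0.34 with 12 arrays and slide. In knockdown clones DNMT1 became -0.33 with slide and on slide 1 only, -0.29 with both blocks, -0.40 with 12 arrays and slide and -0.085 with the array median, and it was -0.29 to 0.44 without 1 clone. Between mock clones DNMT1 became 0.13 with slide and on slide 1 only, 0.19 with both blocks and 0.062 with 12 arrays and slide, and it was -0.86 to 0.13 without 1 clone. Between treated clones it became 0.0037 with 12 arrays and slide. Over all clones the brightest DNMT3A probe became -0.50 with slide, -0.35 with both blocks, -0.37 in the clones on 1 slide and -0.016 with the array median, and was -0.0050 to 0.38 without 1 clone. The third DNMT3A probe became 0.13 with slide, 0.11 with both blocks, 0.037 in the clones on 1 slide and 0.018 with normexp, and was -0.091 to 0.017 without 1 clone. The second UHRF1 probe became -0.24, -0.27 and -0.27 in the first 3 of these settings and -0.14 with the array median, and was -0.053 to 0.27 without 1 clone. Between mock clones it became 0.0057 with both blocks. The brightest UHRF2 probe became -0.12, -0.11 and -0.094 in the same 3 settings, -0.23 with the array median and -0.19 for the mean of both probes, and was -0.046 to 0.049 without 1 clone. HELLS between mock clones became -0.038 with slide and on slide 1 only, -0.026 with both blocks, -0.034 for the mean of both probes and -0.082 with 12 arrays and slide, and was -0.038 to 0.19 without 1 clone. The cause was not tested. With the array median the median of all probes over all clones moved from -0.053 to -0.29, and 6 members were called, where 8549 of all probes were. Between clone types the numbers do not pair clones (correlations of 0.028 to 0.048 in mock and -0.058 to 0.094 in treated clones), and the replicate block left the counts at 0. Over all probes, 3611 were called over all clones and 888 (clones on 1 slide) to 8549 (array median) in the alternatives, 1283 in control clones (0 to 5345), 519 in knockdown clones (0 to 844), 34 between mock clones (0 to 115), 24 between treated clones (0 to 7727) and 8 for the interaction (1 to 13). Members near the background floor (DNMT3L and 1 DNMT3B probe) could not be measured.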
